A study of Mus musculus with 8 samples.

Results

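Plasma membrane amino acid transporters were examined as a set of 10 genes: Slc3a2, Slc7a5, Slc7a11, Slc7a1, Slc7a3, Slc6a9, Slc1a4, Slc1a5, Slc38a1 and Slc38a2. They were chosen by symbol for what their proteins do, with earlier results of these libraries known. All 10 had a row among the 19457 genes of the deposited table. RNA was sequenced from keratinocytes, the cells that build the epidermis, which had been taken from mouse skin into primary culture and were still subconfluent. There were 4 wild-type (WT) libraries and 4 libraries from mice of genotype HdR, which carry HOIL1 ΔRING1, a HOIL-1L protein without its first RING domain. Rbck1 encodes HOIL-1L, which belongs to LUBAC, the ligase complex that builds linear ubiquitin chains. The labels give no age, sex, strain or treatment, and leave it unsaid whether the 4 libraries of each genotype stand for different mice or culture dishes, so a p-value here weighs the spread among libraries, which may be technical.

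Cells take up amino acids through carriers of several solute carrier (SLC) families. Some carriers are single proteins, and others are pairs of a light chain, which carries the substrate, and a heavy chain, which brings the pair to the membrane. Many carrier genes are known targets of ATF4, the transcription factor made when amino acids are short or the integrated stress response is active. Dividing keratinocytes rely on this uptake for protein synthesis, and cystine uptake feeds the synthesis of glutathione, the main small thiol of the cell.

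Promoter sequence is shown first because ATF4 and its C/EBP partners bind a known composite element, whose core was searched as TGATGNAA on both strands. RefSeq promoter windows of GRCm38.p6, from 250 bases before to 50 after an annotated start, were found for 6 of the 10 genes, 9 windows in all. Slc7a1, Slc7a11, Slc3a2, Slc6a9, Slc1a4 and Slc38a2 had a window, and Slc7a3, Slc7a5, Slc1a5 and Slc38a1 had none. The last bases of the Slc3a2 window (chr19:8713848-8714147) were not found in an annotated transcript of that gene, unlike those of the other windows. Whether this window is the promoter in use was not tested. The core was present in the windows of Slc7a11 and Slc1a4. Across all RefSeq windows of the same length it was present in 3.97% of 32851 windows, and 2.68% of the 9344 tested genes with a window had it. Slc7a11 had 2 matches, facing each other, and 0.0700% of all windows had 2 or more. A window of Slc7a7, a carrier gene outside the 10 whose level was too low for testing, also had 2. The 250 bases before the Slc7a11 start (chr3:50443614-50443863, minus strand) are given 5′ to 3′, with both matches in capitals, the second one reading on the opposite strand.
Slc7a11 promoter: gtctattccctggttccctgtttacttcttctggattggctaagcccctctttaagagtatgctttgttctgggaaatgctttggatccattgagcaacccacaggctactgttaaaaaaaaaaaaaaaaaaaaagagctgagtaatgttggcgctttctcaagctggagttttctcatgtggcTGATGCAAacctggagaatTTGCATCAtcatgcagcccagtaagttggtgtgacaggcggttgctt

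The matches of the transporters are set beside those of the amino acid enzyme genes that also had one, each read 5′ to 3′ on the strand of the match, with the core in capitals and 10 bases on either side. Positions count from the annotated start, with -1 the base before it.
Slc7a11, -66 to -59, chr3:50443662-50443689, minus strand: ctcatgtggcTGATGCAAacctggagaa
Slc7a11, -47 to -40, chr3:50443643-50443670, plus strand: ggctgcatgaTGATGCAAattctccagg
Slc1a4, -4 to 4, chr11:20332700-20332727, plus strand: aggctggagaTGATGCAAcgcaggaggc
Asns, -23 to -16, chr6:7693215-7693242, minus strand: cccagccacaTGATGAAActtcccgcac
Chac1, -193 to -186, chr2:119351039-119351066, minus strand: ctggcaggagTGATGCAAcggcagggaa
Pycr1, -103 to -96, chr11:120643834-120643861, minus strand: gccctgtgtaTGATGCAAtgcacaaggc
Got1, -102 to -95, chr19:43524690-43524717, plus strand: gaggcttgtaTGATGCAAccaatgcaat
All 3 transporter matches shown read TGATGCAA, and of the enzyme genes Asns differed from this in its variable base. Among genes with a window in the lists described below, 1 of 21 other carriers and 3 of 14 regulators had the core. It was in 1 of 34 sensing genes and 0 of 8 glutathione genes, beside 2.68% of tested genes with a window. The core of the antioxidant response element bound by NRF2, searched as TGACNNNGC on both strands, was present in windows of Slc7a1, Slc6a9 and Slc38a2, and in 16.9% of tested genes with a window. These are matches of letters in 1 window length, and binding was not measured.

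The deposited values are summed aligned bases per gene. They were scaled to aligned bases per megabase of each library's normalised total (aligned bases per Mb), with trimmed-mean (TMM) factors. Library totals were 4.78 to 5.43 Gb in WT and 2.31 to 4.31 Gb in HdR, so depth and genotype cannot be told apart. HdR minus WT, the difference in mean depth was -1.58 Gb, with p = 0.029 by a two-sided exact permutation test, the smallest that 70 regroupings allow. Rbck1, whose coverage is summed over the altered and the intact part alike, ranged from 84.5 to 91.5 aligned bases per Mb in WT and from 41.1 to 45.2 in HdR. The keratinocyte markers Krt5, Krt14, Trp63, Dsp, Itga6, Cdh1, Perp and Krt15 summed to 45202 to 48401 in WT and 46295 to 47589 in HdR. By the limma test described below, 1 of these 8 was lower, 2 were higher and 5 were not called. Over all genes tested 23.8% were lower and 21.2% higher. Of the markers of fibroblasts, endothelial cells and leukocytes, 0 of the 14 with a row reached the mean of 1 aligned base per Mb required for testing, and Cd207 and Lyz2 were listed at 0 in every library. The 4 endothelial markers summed to 0.482 to 0.784 aligned bases per Mb in WT and 1.22 to 1.85 in HdR. Of 10 melanocyte markers, 7 were tested and 6 were lower in HdR, beside 23.8% of all genes tested. The summed level of the 10 was 53.1 to 61.3 in WT and 27.7 to 29.7 in HdR.

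The transporter transcripts were lower in HdR. The set was chosen with earlier results of these libraries known, so their direction is not independent evidence. By limma on log2(aligned bases per Mb + 1), called at a Benjamini-Hochberg adjusted p under 0.05, 8 of the 10 genes were lower and 0 higher, where 23.8% of the 11870 genes tested were lower and 45% were called in either direction. The other 2, Slc1a5 and Slc38a1, were not called, and all 10 log2 fold changes were below 0, so 0 were higher at an unadjusted p under 0.05 as well. Every HdR library lay below every WT library for 8 of the 10 genes, where 21.3% of genes tested did so. When limma's treat function asked for more than a 1.2-fold difference, 6 were lower and 0 higher, where 4.58% of genes tested were lower and 2.89% higher. The median log2 fold change was -0.70 over the 10 genes and -0.01 over all genes tested. Slc6a9, Slc7a11 and Slc7a3 stood at ranks 10, 12 and 13 of the 11870 genes ordered from the lowest log2 fold change, and 4 of the 10 genes were below -1, where 130 of all genes tested were. In bulk RNA, fewer cells of a type and less RNA per cell cannot be told apart.

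**Figure D1:**
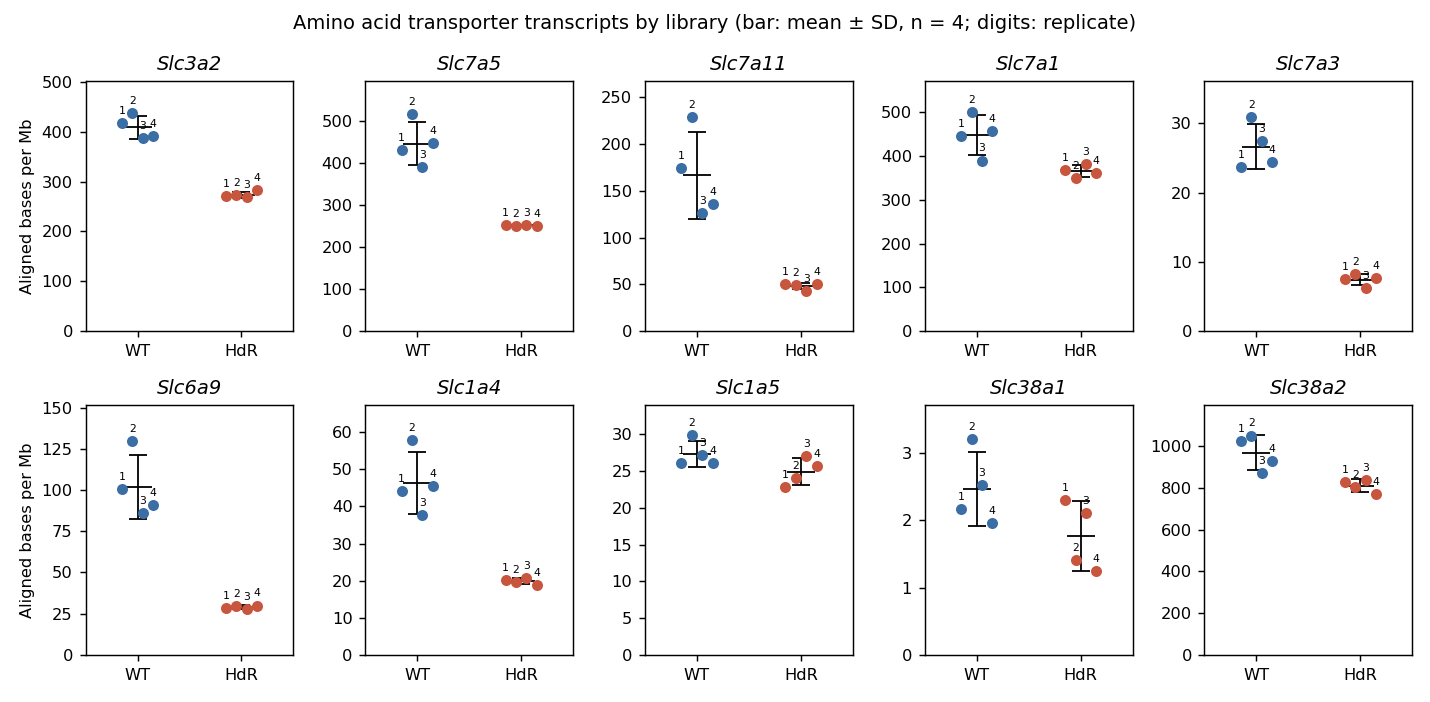
Aligned bases per Mb (vertical axes, linear from 0) of the 10 transporter genes in each WT and HdR library, with the replicate number above each point and the mean ± SD (n = 4) as bars. HdR points lie below all WT points in 8 panels and overlap them for Slc1a5 and Slc38a1.

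Slc3a2 (ENSMUSG00000010095.13, GRCm38 chromosome 19, 8706882 to 8723369, minus strand) encodes 4F2hc, also called CD98, the heavy chain that several light chains share. Its level was 418, 437, 388 and 391 aligned bases per Mb in WT 1 to 4, and 271, 273, 268 and 282 in HdR 1 to 4. The groups were well apart and the HdR libraries lay close together. The log2 fold change was -0.57 ± 0.040 (SE, limma adjusted p = 9.83e-09).

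Slc7a5 (chromosome 8, 121881150 to 121907694, minus strand) encodes LAT1, the light chain that exchanges large neutral amino acids such as leucine. WT libraries had 430.1, 515, 391 and 448 aligned bases per Mb, and HdR libraries 253, 249, 252 and 250.5. The HdR values were nearly equal, with a coefficient of variation of 0.738% against 11.6% in WT. The log2 fold change was -0.82 ± 0.067 (SE, adjusted p = 3.71e-06), a mean 1.78-fold higher in WT.

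Slc7a11 (chromosome 3, 49892526 to 50443614, minus strand) encodes xCT, the light chain that imports cystine in exchange for glutamate. Its level was 175, 228, 126 and 136 aligned bases per Mb in WT 1 to 4, and 50.1, 49.2, 43.1 and 50.1 in HdR 1 to 4. Every HdR value was far under the lowest WT value, while WT 2 stood well above the other WT libraries. The log2 fold change was -1.73 ± 0.19 (SE, adjusted p = 0.000525), with the largest SE of the 10 genes, and the WT mean was 3.46-fold the HdR mean. Slc7a11 is also known for its part in pigment synthesis in mouse melanocytes. Of 7 tested melanocyte markers, 6 were lower in HdR, as given above. The part of those cells in the Slc7a11 difference was not tested.

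The cationic carriers Slc7a1 and Slc7a3 encode CAT1 and CAT3, which take up arginine and lysine. Slc7a1 (chromosome 5, 148327410 to 148399904, minus strand) was at 445, 500.4, 389.8 and 458 aligned bases per Mb in WT and 368, 349.8, 382 and 361 in HdR. Its groups were separated by little, WT 3 against HdR 3, and the log2 fold change was -0.29 ± 0.063 (SE, adjusted p = 0.0032). It did not pass the test against a fold of 1.2. Slc7a3 (chromosome X, 101079210 to 101086020, minus strand) was at 23.7, 30.8, 27.5 and 24.5 in WT and 7.51, 8.30, 6.28 and 7.72 in HdR. These groups were far apart, with a log2 fold change of -1.71 ± 0.093 (SE, adjusted p = 3.82e-10) and a WT mean 3.57-fold the HdR mean.

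Slc6a9 (chromosome 4, 117834506 to 117875198, plus strand) encodes the glycine transporter GlyT1. Its level was 100.4, 129.8, 86.3 and 91.2 aligned bases per Mb in WT and 28.6, 29.9, 27.8 and 30.0 in HdR. WT 2 was again the highest library, and the HdR libraries were close together. The log2 fold change was -1.76 ± 0.12 (SE, adjusted p = 6.68e-06). Genes on the opposite strand overlap the annotated Slc6a9 exon bases: Ccdc24 27.8% of them, Gm17114 9.94% and B4galt2 0.895%. The strand setting of the count is not given in the sources used here, and the part of these genes in the Slc6a9 value was not tested. The row for Ccdc24 held 0.527 aligned bases per Mb in WT and 0.350 in HdR, and that for B4galt2 6.48 and 6.44.

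The small neutral amino acid carriers were unequal. Slc1a4 (chromosome 11, 20302180 to 20332713, minus strand), which encodes the alanine, serine and cysteine carrier ASCT1, was at 44.2, 57.9, 37.8 and 45.5 aligned bases per Mb in WT and 20.3, 19.7, 20.6 and 18.9 in HdR. The groups did not overlap, and the log2 fold change was -1.17 ± 0.10 (SE, adjusted p = 3.54e-06). Slc1a5 (chromosome 7, 16781340 to 16798274, plus strand), which encodes the glutamine carrier ASCT2, was at 26.1, 29.9, 27.2 and 26.2 in WT and 22.9, 24.1, 27.0 and 25.8 in HdR. Here HdR 3 lay inside the WT range, and the log2 fold change of -0.13 ± 0.066 (SE, adjusted p = 0.123) was not called.

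Slc38a1 and Slc38a2 encode SNAT1 and SNAT2, sodium-coupled carriers of small neutral amino acids and glutamine, and lie 44.5 kb apart on chromosome 15 (96571418 to 96642913 and 96687392 to 96699730, both on the minus strand). Slc38a2, the form known to rise when cells are starved of amino acids, was at 1023, 1052, 873 and 929 aligned bases per Mb in WT and 831, 805, 838 and 773 in HdR. The groups came close to each other but did not overlap, with a log2 fold change of -0.25 ± 0.053 (SE, adjusted p = 0.00145). It did not pass the test against a fold of 1.2. Slc38a1 was near the lower limit of testing, at 2.16, 3.20, 2.52 and 1.96 in WT and 2.30, 1.41, 2.11 and 1.24 in HdR. Its groups overlapped, and the log2 fold change was -0.33 ± 0.15 (SE, adjusted p = 0.0797). Slc38a1 was called lower without HdR 1 (log2 fold change -0.42, adjusted p = 0.0419). Over 19 alternatives its log2 fold change ran from -0.48 to -0.14, the smallest with a pseudocount of 5, and the limma adjusted p from 0.0419 to 1.0. After thinning to the smallest library it was -0.15 (adjusted p = 0.542).

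WT 2 was the highest of the WT libraries for all 10 genes, where it was the highest for 25.8% of genes tested. Among genes called lower in HdR it was the highest for 37.2%. In the lists described below, WT 2 was the highest for 10 of 14 amino acid synthesis genes and 6 of 11 glutathione genes. The same held for 14 of 38 sensing genes, 7 of 27 other carriers and 3 of 17 regulators. WT 3 was the lowest for 7 of the 10, against 28.8% of genes tested. Without WT 2 the same 8 genes were called lower by limma, with log2 fold changes of -1.57 for Slc7a11 (adjusted p = 8.11e-05), -1.64 for Slc6a9, -1.64 for Slc7a3, -1.06 for Slc1a4, -0.75 for Slc7a5, -0.54 for Slc3a2, -0.23 for Slc7a1 and -0.21 for Slc38a2. The coefficient of variation was larger in WT than in HdR for 8 of the 10 genes, all but Slc1a5 and Slc38a1, and for 55.2% of genes tested.

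**Figure D2:**
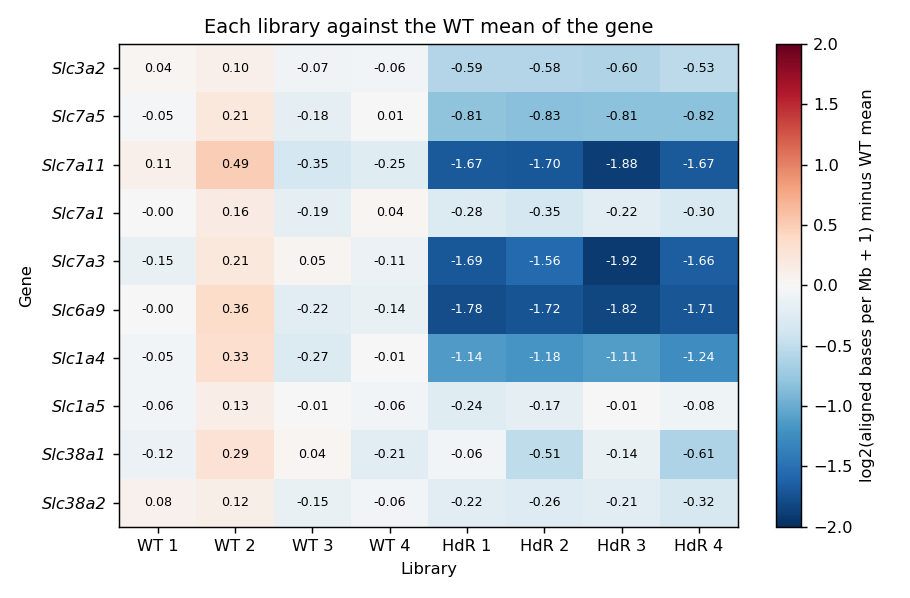
Difference of each library from the WT mean of the gene (colour and printed value, log2 of aligned bases per Mb + 1) for the 10 genes in 4 WT and 4 HdR libraries. WT 2 is above the WT mean in every row, and the HdR columns run from near -0.01 for Slc1a5 in HdR 3 to -1.92 for Slc7a3 in HdR 3.

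Between related carriers, ratios taken within a library need no depth scaling. Ratios of aligned bases for 6 pairs were compared between genotypes with two-sided exact permutation tests, adjusted over the 6, and for these sizes the smallest p is 0.029. Slc7a1 over Slc7a3 was 18.8, 16.2, 14.2 and 18.7 in WT and 49.0, 42.1, 60.8 and 46.8 in HdR, so the balance of the cationic carriers moved towards Slc7a1 (difference in log2 ratio 1.55, adjusted p = 0.034). Slc1a4 over Slc1a5 went from 1.69, 1.94, 1.39 and 1.74 to 0.886, 0.816, 0.764 and 0.732, a difference of -1.07 (adjusted p = 0.034). In both pairs all 4 HdR ratios lay outside the WT range.

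The light chains did not move in step with each other or with their heavy chain. Slc7a11 over Slc3a2 was 0.418, 0.522, 0.326 and 0.349 in WT and 0.184, 0.180, 0.161 and 0.178 in HdR (difference in log2 ratio -1.18, exact permutation adjusted p = 0.034). Slc7a5 over Slc3a2 differed less, from 1.03, 1.18, 1.01 and 1.15 to 0.933, 0.913, 0.941 and 0.887 (difference -0.24, adjusted p = 0.034), and its adjusted p was 0.0686 without HdR 2 or without HdR 4. Slc7a5 over Slc7a11 rose from 2.46, 2.26, 3.09 and 3.28 to 5.06, 5.07, 5.85 and 4.99 (difference 0.93, adjusted p = 0.034). For the neighbouring genes, Slc38a1 over Slc38a2, the mean log2 ratio was -8.64 ± 0.284 in WT and -8.89 ± 0.383 in HdR (SD, n = 4), and the difference of -0.25 was within the spread of the libraries (exact permutation adjusted p = 0.314).

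**Figure D3:**
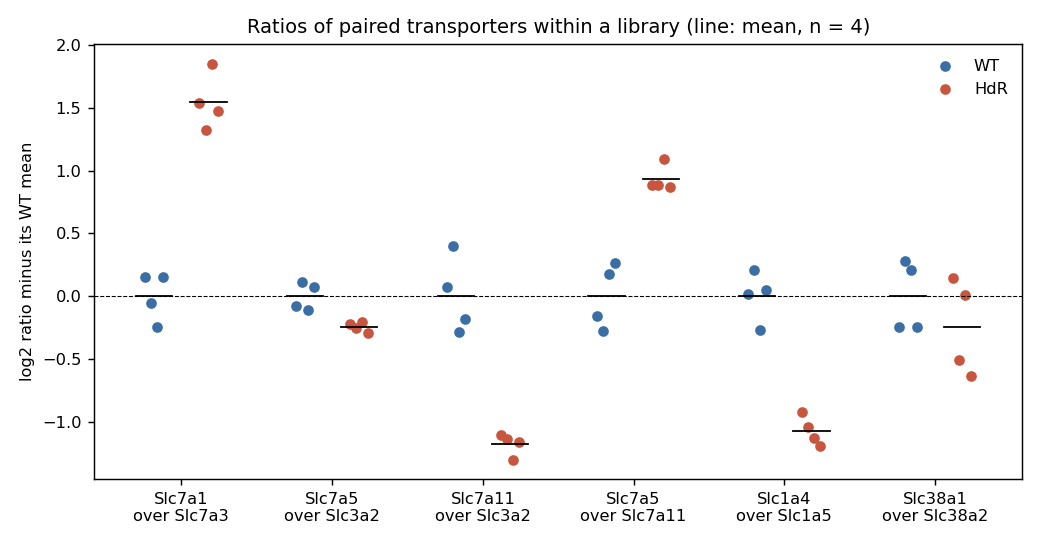
Log2 ratio of 2 transporter genes within each library, less the WT mean of that ratio (vertical axis), for 6 pairs. Points are libraries and lines are means of 4; WT and HdR points are apart in 5 pairs and mixed for Slc38a1 over Slc38a2.

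Levels were compared between genes per kb of annotated exon (GENCODE vM21), as mean aligned bases per Mb per kb. In WT the highest were Slc7a5 at 120.3, Slc3a2 at 116 and Slc38a2 at 109.7. The ranges of these 3 over the WT libraries overlapped, and by longest coding transcript Slc38a2 came first, so their order is not settled. Slc7a1 followed at 38.9 and Slc6a9 at 19.8. Slc7a11 at 11.96 and Slc1a4 at 11.8 had overlapping ranges, as had Slc7a3 at 7.03 and Slc1a5 at 6.55. Slc38a1 was lowest at 0.143.

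In HdR the order per kb was led by Slc38a2 at 91.8, Slc3a2 at 77.6 and Slc7a5 at 67.8, with no overlap among their libraries. Slc7a1 was next at 31.7. Slc1a5 at 5.98 and Slc6a9 at 5.65 had overlapping ranges, and Slc1a4 was at 5.06. Slc7a11 came after these at 3.46 and Slc7a3 at 1.97, above Slc38a1 at 0.103. By longest coding transcript Slc7a11 at 5.22 came before Slc1a4 at 5.06, so the order of Slc7a11 and Slc1a4 is not settled.

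Among the other plasma membrane amino acid carriers, changes went in both directions. Of 29 listed, 27 had a row and 11 were tested, of which 4 were lower and 3 higher by limma (median log2 fold change -0.17), beside 23.8% lower and 21.2% higher over all genes tested. Slc7a8, which encodes LAT2, another light chain of the Slc3a2 heavy chain, had 15.8 ± 0.851 aligned bases per Mb in WT and rose to 30.5 ± 1.57 in HdR (mean ± SD of 4), a log2 difference of 0.91 ± 0.063 (SE). Slc1a1, which encodes the glutamate and aspartate carrier EAAT3, rose from 15.7 ± 2.21 to 31.1 ± 3.42, and Slc38a4, a sodium-coupled neutral carrier gene, from 3.69 ± 0.839 to 6.08 ± 0.249. Slc7a8 and Slc1a1 passed the test against a fold of 1.2, and Slc38a4 did not. Slc1a3, which encodes the glutamate carrier EAAT1, fell from 14.4 ± 2.70 to 6.88 ± 1.03. The number lower was 1 without WT 1 or WT 2, with no filter, with a stricter filter and against a fold of 1.2. It was 2 without WT 4 or HdR 4, and also with neither mean trend nor robust variance, library totals or upper-quartile scaling.

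**Figure D4:**
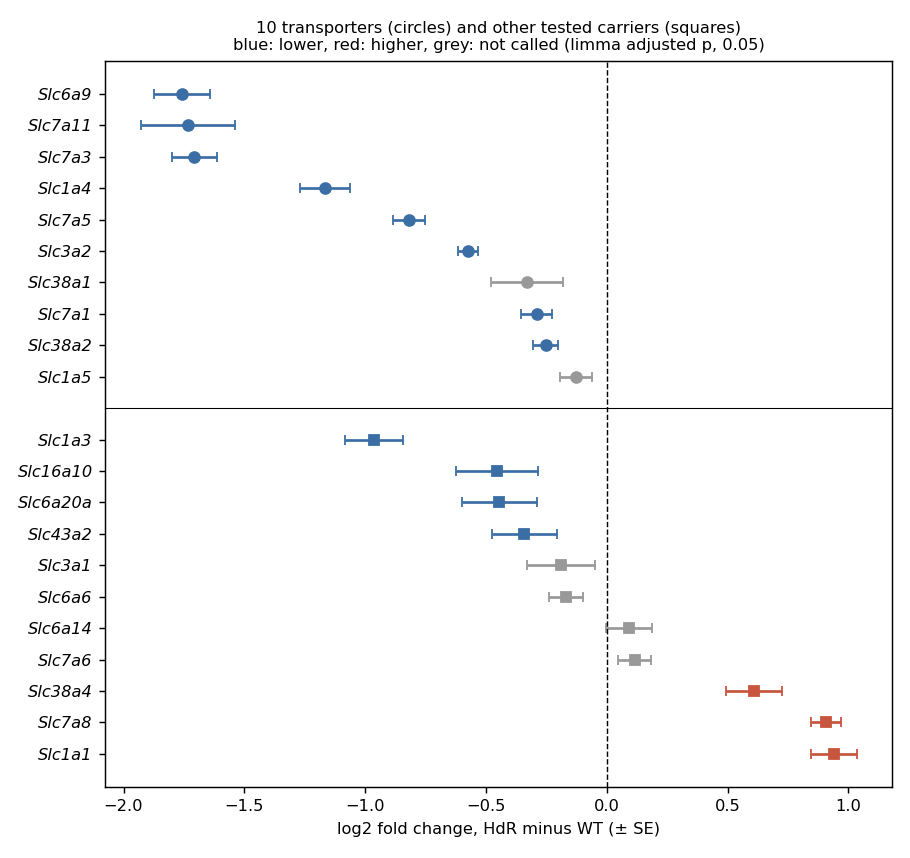
Log2 fold change, HdR minus WT (horizontal axis, ± SE), of the 10 transporters (circles) and of the 11 other tested carriers (squares), coloured by the limma call. All 10 circles lie below 0, and the squares run from Slc1a3 at -0.96 to Slc1a1 at 0.94.

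Genes of amino acid synthesis and related metabolism fell together with the transporters. Of 14 listed, 13 were tested, and all 13 were lower and 0 higher by limma, with a median log2 fold change of -0.94, beside 23.8% of all genes tested that were lower. All 13 had every HdR library below every WT library, beside 21.3% of all genes tested. Psph, the last enzyme of serine synthesis, fell from 128 ± 6.62 to 59.1 ± 3.61 aligned bases per Mb (SD over 4 libraries), and Mthfd2, a mitochondrial folate enzyme gene, from 190.3 ± 13.2 to 98.5 ± 1.97. Asns and Psat1, for asparagine and serine synthesis, had log2 fold changes of -0.88 ± 0.032 and -0.92 ± 0.043 (SE). They were listed because ATF4 is known to induce these pathways, with earlier results of these libraries known, so their direction is not independent evidence. Of 13 with a promoter window, 4 had the TGATGNAA core, namely Asns, Chac1, Got1 and Pycr1, beside 2.68% of tested genes with a window. These 13 include Bcat1, which was not tested, and leave out Cth, which had no window.

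Of 17 regulators of the amino acid and integrated stress response, 10 were lower, 2 higher and 5 not called (median -0.29), beside 23.8% lower and 21.2% higher over all genes tested. Atf5, a transcription factor gene related to Atf4, fell from 319 ± 16.1 to 143 ± 5.12 aligned bases per Mb and Nupr1, a stress-induced nuclear protein gene, from 24.4 ± 2.25 to 10.7 ± 1.08 (SD, n = 4). The C/EBP family genes Cebpb and Cebpg had log2 fold changes of -0.63 ± 0.045 and -0.57 ± 0.049 (SE). Atf4 itself, named after its values were seen, went from 267 ± 11.7 to 218 ± 10.5, with a log2 fold change of -0.29 ± 0.042. With upper-quartile scaling or library totals, 4 regulators were called higher. Of all genes tested, 3113 of 11872 and 2880 of 11873 were then higher, against 2517 of 11870 in the main fit.

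Genes that sense amino acids at the lysosome and pass the signal to the growth kinase mTORC1 were mostly not called. Of 37 tested, 8 were lower, 4 higher and 25 not called (median -0.07), so the number lower was near the 23.8% of all genes tested and the number higher under their 21.2%. Against a fold of 1.2, 1 was lower and 0 higher, beside 4.58% and 2.89% of all genes tested. Sesn2, a leucine sensor gene that is also an ATF4 target, fell by 0.41 ± 0.043 on the log2 scale (SE), and the lysosomal carrier gene Slc38a9, an arginine sensor, by 0.53 ± 0.10. Rheb, which encodes the small GTPase that activates mTORC1, and the lysosomal scaffold gene Lamtor2 fell by 0.26 ± 0.039 and 0.35 ± 0.057. Depdc5, named after its values were seen, had the lowest log2 fold change of this list, -1.04 ± 0.31 (SE, limma adjusted p = 0.0327). Its level was 45.4 to 48.3 aligned bases per Mb in WT and 32.3, 32.8, 13.9 and 16.2 in HdR 1 to 4. It did not pass the test against a fold of 1.2. The number higher was 2 without WT 2, 2 without HdR 4, 1 without HdR 2 and 2 after thinning to the smallest library, where the number lower was 5.

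Glutathione and antioxidant genes, which use the cysteine that xCT supplies or share its regulation by NRF2, were called in both directions. Of 11 tested, 6 were lower, 2 higher and 3 not called (median -0.15), beside 23.8% lower and 21.2% higher over all genes tested, so the number higher was near that share. Gclc and Gclm, the subunits of the first enzyme of glutathione synthesis, had log2 fold changes of -0.55 ± 0.085 and -0.43 ± 0.058 (SE). Gsr, glutathione reductase, rose by 0.33 ± 0.055. Nfe2l2, which encodes NRF2, fell by 0.15 ± 0.033. Against a fold of 1.2, 1 gene of this list was lower and 0 higher, beside 4.58% and 2.89% of all genes tested.

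**Figure D5:**
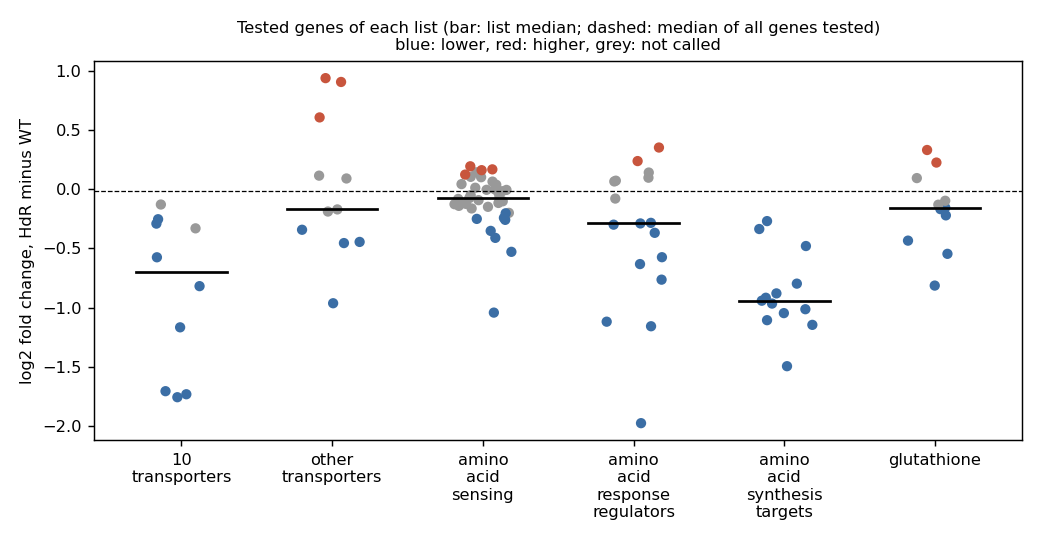
Log2 fold change, HdR minus WT (vertical axis), of each tested gene in the 10 transporters and 5 related lists, with the list median as a bar and the median of all genes tested dashed. Medians run from -0.94 for amino acid synthesis and -0.70 for the 10 transporters to -0.07 for amino acid sensing.

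The genes whose pattern was most like that of Slc3a2 over the 8 libraries were Rab38, Dhrs7, Aars, Cry2 and Ak3. Likeness was the Euclidean distance between log2 levels centred on the WT mean, among tested genes other than the 10 transporters. These 5 had distances of 0.0828, 0.105, 0.111, 0.117 and 0.118. With that centring the distance largely restates the fold change. The log2 fold changes of the 5 were -0.62 to -0.54, beside -0.57 for Slc3a2. Rab38 encodes a GTPase of lysosome-related organelles such as melanosomes, Aars the cytosolic alanyl-tRNA synthetase, Cry2 a circadian repressor and Ak3 a mitochondrial adenylate kinase. Aars had a mean level of 443 ± 16.6 aligned bases per Mb over the WT libraries and 288 ± 5.04 over the HdR libraries (SD of 4). Of the transporters, Slc7a5 was the nearest to Slc3a2, at 0.528, and Slc6a9 and Slc7a11 the farthest, at 2.39 and 2.38.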

How the data were processed

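The authors deposited 1 table of whole-number signal (coverage, summed aligned bases per gene symbol) for 8 libraries, a unit read from the values, with 302 the commonest non-zero value. Per the labels' protocols, libraries were made from total RNA (NEBNext Ultra II). Per the submitters' processing notes, GRCm38 was the genome build. The aligner, counting tool, filters and strand setting are not given in the sources used here. Summed bases do not count molecules, so counting intervals and floors are left out.

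Values were scaled with TMM factors (0.974 to 1.01, trimming 30% of log ratios and 5% of levels at each end). limma 3.58.1 (R 4.3.3, statmod 1.5.0, mean trend, robust variance) was fitted to log2(value + 1) for 11870 genes with a mean of at least 1, with genotype as the only factor. Fold changes are on that scale, which understates the change of low genes. The calculation was tested on simulated data. Sequences and motif counts used Python 3.11.15, pandas 2.3.3 and matplotlib 3.10.9.

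The genes and lists were chosen with earlier results of these data known. Genes named are the 10 transporters, Rbck1, the 4 called genes with the smallest p in each list, and the 5 most like Slc3a2; others are marked. Alternatives changed the scaling, filter, pseudocount, variance model, null fold, replicate block and libraries. Thinning to the smallest library, and leaving out WT 4 and HdR 4 together, were added after seeing the data.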

Additional observations from a re-analysis of the deposited data

Results flagged for a closer look

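Among 86 groups of 4 libraries checked, 5 had a library far from the other 3 (Dixon's test at 95%), and chance flags about 1 in 20. Slc7a11 was at 43.1 aligned bases per Mb in HdR 3, against 49.2 to 50.1 in the other HdR libraries. The log2 ratio of Slc7a5 to Slc7a11 was 2.55 in HdR 3, against 2.32 to 2.34 in the others, and rests on the same Slc7a11 value. Rheb was at 119 in HdR 2, against 109.1 to 110.2 in the others. Gsr was at 47.8 in HdR 3, against 54.1 to 54.8, and Ak3 at 99.97 in HdR 2, against 104.9 to 105.8.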

How the results depend on the processing

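Of the 10 transporters, 8 were lower in 18 of 20 alternatives, 9 without HdR 1 and 6 against a fold of 1.2, and 0 were higher in all 20. All 10 fold changes stayed below 0 wherever the gene was tested, which Slc38a1 was not under the stricter filter. Deviations across genes of same-numbered WT and HdR libraries correlated at 0.03, -0.07, -0.22 and 0.02, each lower than with some other number. Each was set against the highest of the other numbers, so this cannot show whether replicate numbers pair the libraries. With the number as a block 8 transporters were lower.

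Other carriers lower numbered 4, and 2 with upper-quartile scaling, 2 with library totals, 1 with no filter, 1 with the stricter filter, 2 with neither mean trend nor robust variance, 1 against a fold of 1.2, and 1 to 4 when each library was left out. Sensing genes lower numbered 8, 1 against a fold of 1.2 and 5 after thinning. Sensing genes higher numbered 4, 2 with the replicate block, 0 against a fold of 1.2, 2 after thinning, 1 without WT 4 and HdR 4 together, and 1 to 4 when each library was left out. Regulators lower numbered 10 and 6 against a fold of 1.2. Regulators higher numbered 2, 4 with upper-quartile scaling, 4 with library totals and 0 against a fold of 1.2. Glutathione genes numbered 6 lower and 2 higher, but 1 and 0 against a fold of 1.2. Over all genes tested, 4.58% were lower and 2.89% higher against a fold of 1.2. Genes called lower numbered 2829 of 11870 in the main fit, 2278 of 11872 with upper-quartile scaling and 2453 of 11873 with library totals. Genes called higher numbered 2517, 3113 and 2880 in the same order. The causes were not tested.

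The Slc7a5 over Slc3a2 difference ran from -0.28 to -0.21 when each library was left out, with exact permutation adjusted p of 0.034 to 0.069. The depth difference ran from -1.84 to -1.17 Gb, with exact permutation p of 0.029 without an HdR library and 0.057 without a WT library. The cause was not tested. HdR libraries were shallower, which limits the low genes such as Slc38a1 most.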

Other observations

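Of the other amino acid carriers on the list, 16 stayed below the mean of 1 aligned base per Mb needed for testing. The highest was Slc7a7, a light chain gene for cationic amino acid export, at 0.975 ± 0.282 in WT and 0.678 ± 0.0523 in HdR (SD, n = 4). Slc43a1, which encodes the neutral amino acid carrier LAT3, was at 0.604 ± 0.136 and 0.459 ± 0.210. The glycine carrier gene Slc6a5 was listed at 0 in all 8 libraries, unlike the other glycine carrier gene, Slc6a9.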
